A study of Mus musculus with 16 samples.

Results

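The interaction of G108 and dietary protein was measured in mouse liver RNA as the change with G108 on a high protein (HP) diet minus the change with G108 on a standard protein (SP) diet. A value below 0 means that the change with G108 was lower when dietary protein was high. The transcript then rose less or fell more on HP, or rose on SP and fell on HP. Its members are all 16 libraries of the 16 in the series, 1 per mouse and 4 per group, the groups being vehicle SP, G108 SP, vehicle HP and G108 HP, and the genes read are the 11839 of 55487 whose level averaged 1 or more TPM (transcripts as a length-scaled share of the library). G108 is a long-acting agonist of the glucagon receptor, given under the skin at 2.5 nmol/kg each day for 22 days. All mice were male C57BL6/J, 10 weeks old before the diets began, and all had eaten a 60 kcal% high fat diet (D12492) for 8 weeks. They then ate a diet that was still high in fat and either standard (D08091803) or high (D08091801) in protein. According to the sample records the livers were taken on day 25 after 4 h without food. The study's methods give other figures for the starting age, the weeks of high fat feeding and the last day. The design holds 1 sex, 1 dose and 1 time, and whole liver was sequenced, so that fewer cells of a type and less RNA per cell cannot be told apart.

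Glucagon is released when amino acids or the need for glucose rise, and it acts mainly on hepatocytes. Its receptor, encoded by Gcgr, couples through the G protein alpha subunit encoded by Gnas to adenylate cyclase, cyclic AMP, protein kinase A and the transcription factor CREB, which binds the cyclic AMP response element (CRE) in promoters. In liver this pathway turns on gluconeogenesis, amino acid uptake, amino acid breakdown and the urea cycle, which disposes of the nitrogen as urea, and it favours fatty acid oxidation over lipid synthesis. A diet rich in protein delivers more amino acids to the same enzymes, so the treatment and the diet may act on some of the same genes.

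The libraries held between 27.8 and 45.0 M reads. Hepatocyte markers were abundant in every group, with a summed level from 23000 to 35000 scaled TPM, while the adipocyte and skeletal muscle lists had no member above the level tested and summed to at most 1.23 scaled TPM in any mouse. The major urinary protein (Mup) genes took from 42.3% to 49.0% of TPM in vehicle SP, from 35.2% to 44.6% in vehicle HP, from 17.5% to 22.4% in G108 SP and from 17.9% to 29.3% in G108 HP. Since TPM is a share of a fixed total, a smaller Mup share by itself raises the TPM of other genes. Values were therefore scaled by median-of-ratios factors, as the relation between samples that most genes share, and are given as scaled TPM. Library 3 of G108 HP stood apart, with 37.3% of TPM from the mitochondrial genome against 21% to 27.4% in the rest of its group, and vehicle SP mouse 4 had 23.96% against 13.8% to 16.2% in the rest of its group, with correlations of 0.929 to 0.950 with them, the lowest of which was the lowest within any group. Of the 129 named genes with an interaction at an unadjusted p under 0.05, 87 were still past it without the first of these libraries and 93 without the second. Without any other single library 98 to 125 were, the fewest without G108 SP mouse 4, so the loss was not particular to the 2 libraries named here. Values or counts without one or both of them stand beside most of the interactions described below that then no longer passed.

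No gene had an interaction at an adjusted p under 0.05 (limma, Benjamini-Hochberg over 11839 genes), and the smallest adjusted p was 0.575. At an unadjusted p under 0.05 limma counted 410 genes with an interaction below 0, which is 3.46% of the genes tested, and 444 with an interaction above 0, which is 3.75%. A variant of the same limma fit, with voom weights on the reads recovered from TPM and the same scaling factors, also called 0 genes after adjustment. Without adjustment it counted 455 below and 462 above 0. It is not independent of the main fit. Because none passed the adjusted test, single genes are described below by their values, the 95% interval of the interaction and its unadjusted p, and no gene is said to respond differently on the diets. The median standard error of an interaction was 0.20 on the log2 scale, against 0.14 for the change with G108 on a single diet. Without library 3 of G108 HP the counts fell to 189 (1.60%) below and 274 (2.31%) above 0, and without vehicle SP mouse 4 to 252 (2.13%) and 362 (3.06%). Other mice moved them as much. They were 217 below and 306 above 0 without G108 SP mouse 3, 226 and 272 without vehicle HP mouse 4, and 886 and 784 without vehicle HP mouse 1.

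The scaling decided how the interaction was spread around 0. On TPM as deposited the median interaction over all genes was -0.49, and 5649 genes (47.7%) lay below 0 at an unadjusted p under 0.05 against 36 (0.304%) above 0. After median-of-ratios scaling the median was 0.01. The shift from the scaled value to TPM as deposited was below 0 for every gene and depended on its level, since 1 is added before the log, with 90% of genes between -0.64 and -0.34. All 410 genes with an interaction below 0 kept that sign on TPM as deposited, whereas 241 of the 444 above 0 did.

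**Figure D1:**
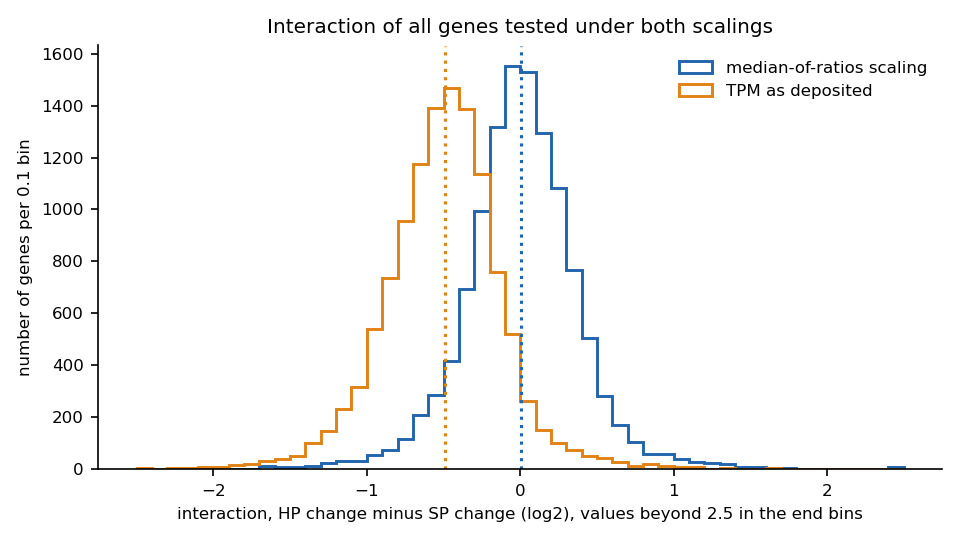
Histogram of the interaction (change with G108 on HP minus change on SP, log2) over the 11839 genes tested, in bins of 0.1, after median-of-ratios scaling (blue) and on TPM as deposited (orange), with dotted lines at the medians. The medians lie at 0.01 and -0.49, so the whole distribution sits lower on TPM as deposited.

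The genes below 0 and above 0 were nearly mirror images in how their groups were arranged, which the choice by the interaction partly fixes. The 410 genes below 0 had a median change with G108 of 0.33 on SP and -0.16 on HP, and 338 of them had opposite signs on the diets. Their median difference of HP minus SP was 0.24 with vehicle and -0.24 with G108. The 444 genes above 0 had medians of -0.36 on SP and 0.19 on HP, with 355 of opposite sign, and their HP minus SP difference was -0.24 with vehicle and 0.29 with G108. In these genes the diet therefore went with one direction in the vehicle mice and the reverse in the G108 mice, and no gene passed the adjusted limma test of either diet contrast. At an unadjusted p under 0.05 there were 247 genes lower and 219 higher on HP with vehicle, and 286 lower and 353 higher with G108.

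Genes that G108 changed on a single diet are a separate question, since most of them were found at a smaller size on the other diet too. On SP 322 genes passed the adjusted limma test (2.72% of those tested), 158 higher (1.33%) and 164 lower (1.39%). Those higher on SP had a median log2 change of 0.77 there and 0.47 on HP, and 152 of the 158 were above 0 on HP. Those lower had medians of -0.87 and -0.48, with 158 of the 164 below 0 on HP. On HP 145 genes passed (1.22%), 76 higher (0.642%) and 69 lower (0.583%). Without library 3 of G108 HP only 17 did (0.144%), but the count fell far without other HP mice too. It was 18 and 24 without vehicle HP mouse 4 and mouse 3, and 38 and 44 without G108 HP mouse 2 and mouse 4. Without vehicle HP mouse 1 or mouse 2, or G108 HP mouse 1, it was 136, 104 and 110. Among the 145, those higher on HP had a median of 0.85 there and 0.64 on SP, with 75 of the 76 above 0, and those lower had -0.90 and -0.84, with all 69 below 0. The diet on which genes are chosen gains from the choice, so the smaller change on the other diet is not a test. Of the genes chosen on SP 140 of the 158 higher and 151 of the 164 lower were closer to 0 on HP, and of those chosen on HP 55 of the 76 higher and 35 of the 69 lower were closer to 0 on SP.

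**Figure D2:**
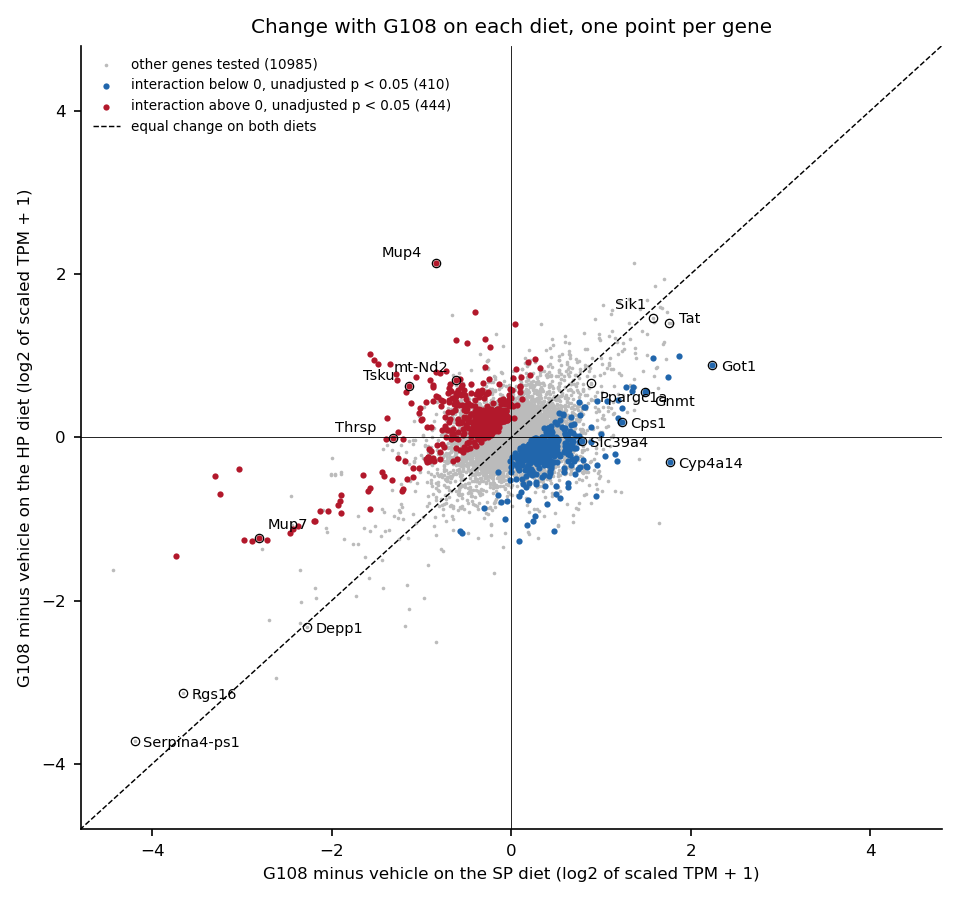
Change with G108 on SP (x axis) against the change on HP (y axis), both as log2 of scaled TPM + 1, for the 11839 genes tested; 410 genes with an interaction below 0 (blue) and 444 above 0 (red) at an unadjusted p under 0.05 are coloured, and genes named in the text are circled. Points on the dashed line change equally on both diets, as Depp1 (-2.27 and -2.32) nearly does, while Got1 (2.24 and 0.88) lies below it and Mup7 (-2.81 and -1.23) above it.

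The glucagon pathway itself is described first of the gene lists, which is not a rank by size. Gcgr had a mean of 219 scaled TPM in vehicle SP, 136 in G108 SP, 161 in vehicle HP and 158 in G108 HP, and its interaction was 0.54 (95% interval -0.36 to 1.44, unadjusted p = 0.22, limma). At an unadjusted p under 0.05, 3.46% of all genes had an interaction below 0 and 3.75% above 0. Of 15 tested genes of the receptor and cyclic AMP machinery, 1 had such an interaction below 0 and 1 above 0. These were Prkar1a, a regulatory subunit of protein kinase A, at -0.46 ± 0.21 (SE), and Gnas at 0.38 ± 0.14. Prkar1a was at -0.39 without library 3 of G108 HP and -0.31 without vehicle SP mouse 4, neither past an unadjusted p of 0.05. On TPM as deposited Gnas was at -0.25.

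The direct targets of the pathway had similar median changes on both diets. Of 13 tested cAMP and CREB target genes, 7 rose with G108 on SP and 3 on HP by the adjusted test (1.33% and 0.642% of all genes), the median change was 0.80 on SP and 0.66 on HP, and the median interaction was -0.21 against 0.01 over all genes. To show what kind of promoter these genes carry, the 250 bases before the annotated start are printed for Pck1, which encodes the cytosolic enzyme that commits carbon to glucose, and Ppargc1a, which encodes the coactivator PGC1 alpha. The sequences are from RefSeq, build GRCm38.p6, at chr2:173152823-173153072, plus strand, and at chr5:51567726-51567975, minus strand, written 5′ to 3′ along the gene with the CRE core in capitals.
Pck1: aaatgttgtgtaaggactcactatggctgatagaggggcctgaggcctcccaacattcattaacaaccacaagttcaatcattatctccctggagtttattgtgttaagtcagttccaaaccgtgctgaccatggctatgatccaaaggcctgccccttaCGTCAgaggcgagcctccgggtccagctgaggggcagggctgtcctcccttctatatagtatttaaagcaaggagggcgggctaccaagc
Ppargc1a: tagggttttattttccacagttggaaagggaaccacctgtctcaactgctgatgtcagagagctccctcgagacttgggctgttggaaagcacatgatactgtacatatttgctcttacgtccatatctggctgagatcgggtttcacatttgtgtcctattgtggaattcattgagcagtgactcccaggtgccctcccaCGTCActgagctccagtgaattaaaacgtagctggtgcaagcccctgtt
The core searched was TGACG on both strands, which also lies inside the full palindrome TGACGTCA. Each of these windows held a single core and no full palindrome, starting 90 bases before the start of Pck1 and 49 before that of Ppargc1a. The core was found in 17.8% of all 32851 promoter windows of this length and the palindrome in 1.55%, so a match alone says little. Nr4a1, another target, held 4 cores, and Tat and G6pc none.

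Sik1, which encodes a kinase that feeds back on CREB coactivators, stood at 3.70, 1.68, 1.52 and 2.17 scaled TPM in the vehicle SP mice, 5.52, 8.20, 11 and 10 with G108 SP, 6.18, 3.61, 1.35 and 2.35 with vehicle HP and 7.08, 13, 12.5 and 9.00 with G108 HP. On both diets every treated mouse lay above every vehicle mouse, and the levels with G108 were alike. Its log2 change was 1.58 on SP (adjusted p = 0.0132, limma) and 1.47 on HP (adjusted p = 0.0371), with an interaction of -0.11 (95% interval -1.05 to 0.83).

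Ppargc1a was lower in level but moved in the same way. It was at 1.60, 0.658, 0.864 and 0.660 scaled TPM with vehicle SP, 2.07, 2.84, 3.08 and 2.27 with G108 SP, 0.944, 0.907, 0.972 and 1.13 with vehicle HP, and 1.73, 2.50, 2.15 and 2.24 with G108 HP. The groups did not overlap on either diet, and the rise was 0.89 on SP (limma adjusted p = 0.00274) and 0.66 on HP (adjusted p = 0.0337), with an interaction of -0.23 (-0.64 to 0.19).

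Tat, the first enzyme of tyrosine breakdown, reached the same level with G108 on both diets. It stood at 499, 213, 196 and 200 scaled TPM with vehicle SP, 571, 877, 1051 and 1036 with G108 SP, 560, 498, 356 and 253 with vehicle HP and 950, 1190, 1031 and 1048 with G108 HP. On SP the rise was 1.75 (limma adjusted p = 0.00633) and 1.4 on HP (adjusted p = 0.0408), and the interaction was -0.35 (-1.28 to 0.57).

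Pck1 differed more between vehicle mice than between treated ones. With vehicle SP it was at 678, 274, 240 and 116 scaled TPM, with G108 SP at 706, 983, 943 and 889, with vehicle HP at 552, 521, 403 and 282, and with G108 HP at 932, 1055, 923 and 935. Every treated mouse again exceeded every vehicle mouse of its diet, although vehicle SP mouse 1 came close. The change was 1.70 on SP (limma adjusted p = 0.0243) and 1.17 on HP (adjusted p = 0.19), with an interaction of -0.53 (-1.67 to 0.61).

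Among the other targets, Crem, an inducible repressor of CREB genes, G6pc, the last enzyme of glucose release, and Pde4b, which breaks down cyclic AMP, rose on SP and did not pass on HP. G6pc changed by 1.09 and 0.89 on SP and HP, with an interaction of -0.20. Crem changed by 0.66 and 0.36. Pde4b was the target with the clearest interaction, -0.52 ± 0.18 (unadjusted p = 0.010, limma), from a change of 0.67 on SP and 0.15 on HP. Nr4a1 at 1.25 and 1.08, Irs2 at 0.80 and 0.59 and Dusp1 at 0.76 and 0.53 did not pass on either diet.

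Of the transcripts that fell most on SP, some also fell on HP. Genes changed most on a diet were chosen among those that passed there and whose groups did not overlap. Passing and lack of overlap on that diet therefore follow from the choice. Rgs16, a regulator of G protein signalling, was at 19.1, 45.4, 40.5 and 27.0 scaled TPM with vehicle SP, 5.98, 0.662, 1.07 and 0.790 with G108 SP, 9.05, 6.37, 11.1 and 35.8 with vehicle HP and 0.771, 0.535, 0.384 and 0.487 with G108 HP. Every treated mouse lay below every vehicle mouse of its diet, and Rgs16 fell by 3.65 on SP and by 3.13 on HP. The antisense transcript Gm28513 overlaps it, and since the counting is not stated to use strand their reads cannot be told apart. The pseudogene Serpina4-ps1, Depp1, a FOXO target, and Arrdc3, an arrestin family member, fell by 4.20, 2.27 and 2.35 on SP and by 3.72, 2.32 and 2.27 on HP, all past the adjusted limma test. The interaction was 0.52 (-0.95 to 1.995) for Rgs16, 0.48 (-1.16 to 2.12) for Serpina4-ps1, -0.05 (-1.24 to 1.14) for Depp1 and 0.08 (-1.03 to 1.20) for Arrdc3. Others that fell as steeply on SP did not pass on HP, namely the pseudogenes Mup-ps2 at -4.44 on SP and -1.62 on HP, Mup-ps3 at -3.30 and -0.47 and Mup-ps15 at -3.04 and -0.38, and Gm13773 at -3.25 and -0.70.

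**Figure D3:**
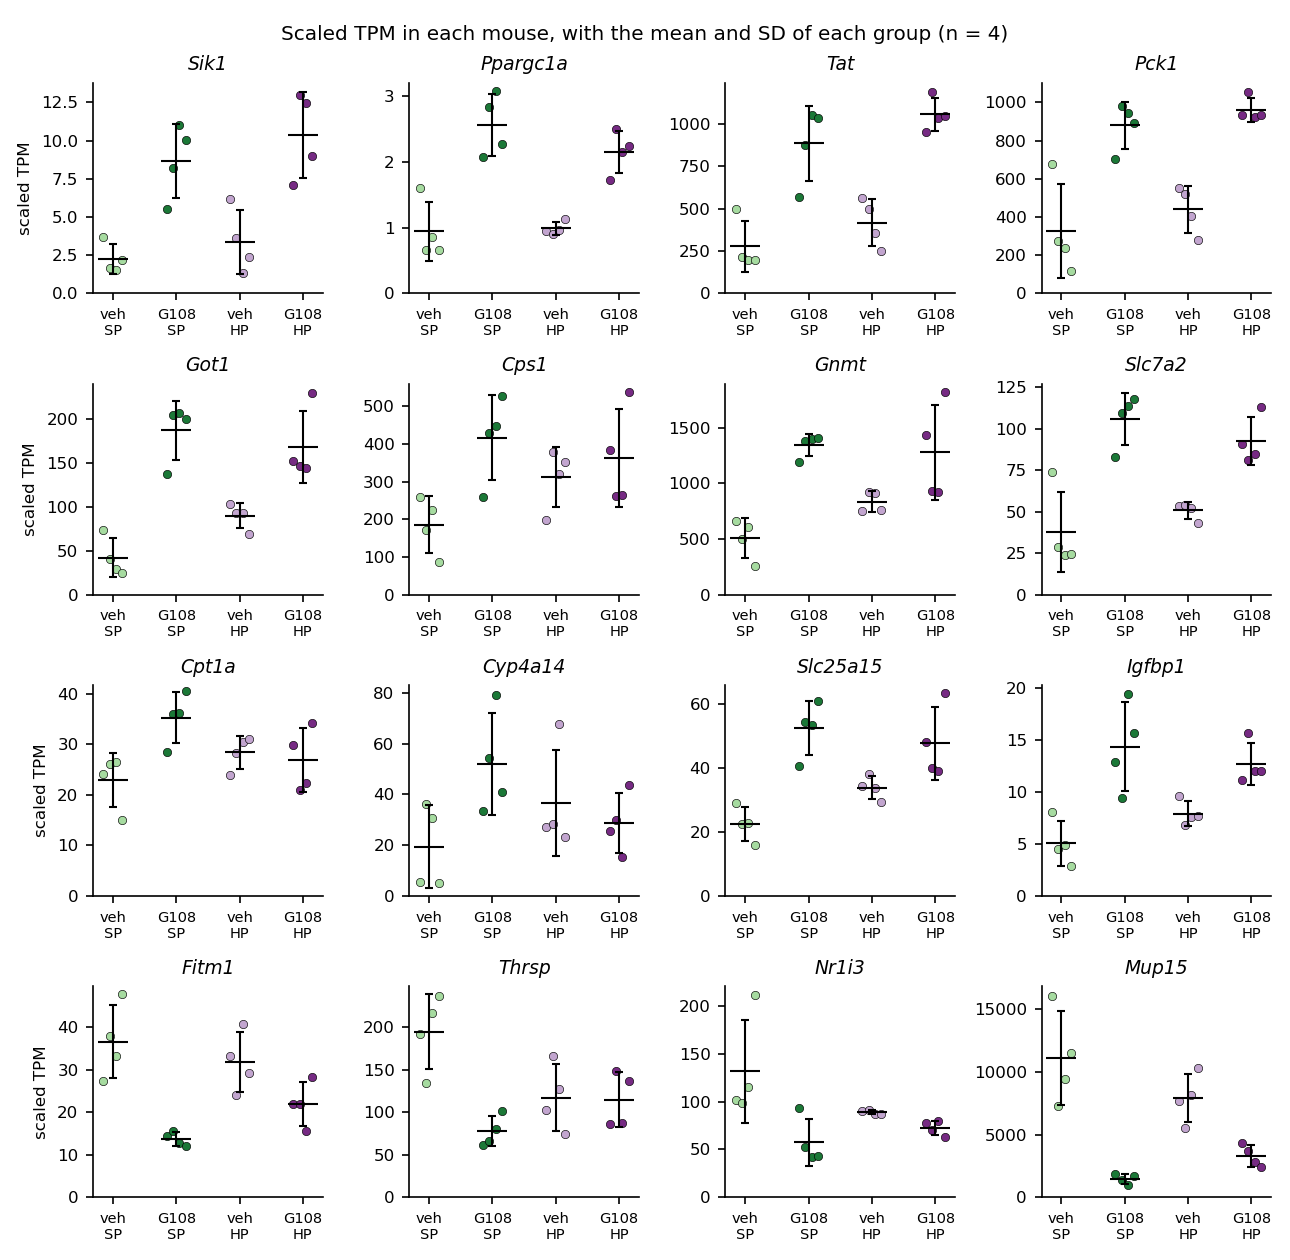
Scaled TPM (y axis, from 0) of 16 genes in each mouse, with the group mean and SD (horizontal and vertical lines, n = 4 per group). Sik1, Ppargc1a, Tat and Pck1 reach similar levels with G108 on both diets; in Got1, Gnmt and Slc7a2 the vehicle HP mice start higher than most vehicle SP mice, and in Fitm1, Nr1i3 and Mup15 G108 SP has the lowest mean.

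Genes of amino acid breakdown and nitrogen disposal had smaller median changes with G108 on HP than on SP in most lists. Lists of other functions shifted in the same direction, such as the hepatocyte markers with a median interaction of -0.23 and 5 of 7 below 0, the TCA cycle with -0.24 and 20 of 24, and complement and coagulation with -0.16 and 25 of 32. The urea cycle list had a median change of 0.56 on SP and 0.19 on HP. Of its 9 genes 8 had an interaction below 0, against 5840 of the 11839 genes tested, and 2 of the 9 passed an unadjusted p of 0.05, Slc25a15 and Cps1, against 3.46% of all genes (1 of 9 without library 3 of G108 HP, and 1 of 9 without vehicle SP mouse 4). The lists for transaminases and glutamate enzymes, serine, threonine and glycine breakdown, and the methionine cycle had 10 of 13, 10 of 11 and 10 of 12 genes below 0, with median interactions of -0.35, -0.28 and -0.23.

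Got1, the cytosolic aspartate transaminase on chromosome 19 (43499752 to 43524605, minus strand, GRCm38), carried the clearest such difference. It stood at 73.5, 40.2, 29.1 and 24.7 scaled TPM with vehicle SP, 137, 205, 207 and 199 with G108 SP, 103, 93.2, 93.4 and 69.4 with vehicle HP and 152, 147, 144 and 229 with G108 HP. The treated groups overlapped each other, while all vehicle HP mice but mouse 4 exceeded every vehicle SP mouse. On SP Got1 rose by 2.24 (limma adjusted p = 0.000481), and it was 0.88 higher on HP (adjusted p = 0.173). The interaction was -1.36 (-2.19 to -0.52, unadjusted p = 0.00349), it was -1.29 without library 3 of G108 HP, and it ranged from -1.998 to -1.15 over all alternatives.

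Gnmt, which uses up methyl groups as glycine N-methyltransferase, showed the same arrangement. It was at 659, 503, 610 and 254 scaled TPM with vehicle SP, 1196, 1384, 1396 and 1411 with G108 SP, 749, 923, 910 and 764 with vehicle HP and 1433, 935, 926 and 1817 with G108 HP. All 4 vehicle HP mice lay above all vehicle SP mice, and the G108 HP mice spread more widely than those of G108 SP. The change was 1.495 on SP (limma adjusted p = 0.00739) and 0.56 on HP (adjusted p = 0.461), the interaction -0.94 (-1.75 to -0.12, limma unadjusted p = 0.0273), and without library 3 of G108 HP it was -0.80 (limma unadjusted p = 0.0597). The 250 bases before the starts of Got1 and Gnmt are shown beside those of Pck1 and Ppargc1a above, at chr19:43524606-43524855, minus strand, and chr17:46729166-46729415, minus strand (RefSeq, GRCm38.p6).
Got1: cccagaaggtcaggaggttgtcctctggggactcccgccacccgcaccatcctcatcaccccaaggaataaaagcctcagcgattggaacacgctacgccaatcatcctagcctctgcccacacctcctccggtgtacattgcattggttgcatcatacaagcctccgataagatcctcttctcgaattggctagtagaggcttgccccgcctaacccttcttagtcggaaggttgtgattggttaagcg
Gnmt: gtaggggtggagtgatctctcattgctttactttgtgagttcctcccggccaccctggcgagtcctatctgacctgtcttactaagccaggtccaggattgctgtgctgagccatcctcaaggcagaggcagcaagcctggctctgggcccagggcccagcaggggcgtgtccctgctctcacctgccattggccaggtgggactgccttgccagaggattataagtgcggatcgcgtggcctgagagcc
Neither window holds the letters TGACG or CGTCA. This is a description of 250 bases and says nothing of sites elsewhere.

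Cps1, which takes in ammonia at the first step of the urea cycle, was at 258, 170, 226 and 86.2 scaled TPM with vehicle SP, 260, 430, 448 and 528 with G108 SP, 199, 379, 321 and 351 with vehicle HP and 383, 263, 263 and 537 with G108 HP. The HP groups overlapped, and the SP groups were barely separated. Neither change passed the adjusted test (1.23 on SP, adjusted p = 0.0765, and 0.19 on HP, limma), and the interaction of -1.04 (-2.08 to -0.01, unadjusted p = 0.0482) became -0.91 (limma unadjusted p = 0.0937) without library 3 of G108 HP and -0.72 (limma unadjusted p = 0.104) without vehicle SP mouse 4.

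Slc25a15, the ornithine carrier of the mitochondrial inner membrane, was more even within groups. It stood at 29.0, 22.3, 22.9 and 16 scaled TPM with vehicle SP, 40.6, 54.3, 53.5 and 60.8 with G108 SP, 34.3, 38.0, 33.7 and 29.2 with vehicle HP and 48.0, 40.0, 38.8 and 63.4 with G108 HP. Treated mice exceeded vehicle mice on both diets, and every vehicle HP mouse exceeded every vehicle SP mouse. It rose by 1.19 on SP (limma adjusted p = 0.00274), was 0.46 higher on HP (adjusted p = 0.323), and had an interaction of -0.73 (-1.29 to -0.18, unadjusted p = 0.0135).

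The remaining cycle enzymes were nearer to equal on the diets. Ass1, which joins citrulline and aspartate, rose by 1.21 on SP and was 0.79 higher on HP, with an interaction of -0.41 ± 0.38. Arg1, which releases urea, changed by 0.67 and 0.58, and Asl, which splits argininosuccinate, by 0.56 and 0.72. Otc, which makes citrulline, was at -0.01 on both diets. None of these 4 interactions had an unadjusted p under 0.05 (limma).

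Amino acid transporters rose on SP in 6 of 13 genes and on HP in 0 of 13 by the adjusted limma test, against 1.33% and 0.642% of all genes, with medians of 0.41 and 0.23. The count that passed on each diet is not a test of the difference, and the median interaction was -0.18, with 11 of the 13 below 0. Slc7a2, the carrier of arginine, lysine and ornithine, was at 74.0, 29.1, 24.1 and 24.7 scaled TPM with vehicle SP, 82.9, 109, 114 and 118 with G108 SP, 53.5, 54.2, 52.5 and 43.1 with vehicle HP and 90.8, 81.2, 84.8 and 113 with G108 HP. Vehicle SP mouse 1 lay above all vehicle HP mice and the rest of its group below them. The interaction of Slc7a2 was -0.77 (-1.59 to 0.06, unadjusted p = 0.0654, limma).

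Slc38a4, a sodium-coupled carrier of neutral amino acids, had the only transporter interaction past an unadjusted p of 0.05, at -0.54 ± 0.21, from 0.70 on SP to 0.16 on HP, and at -0.44 (limma unadjusted p = 0.0526) without library 3 of G108 HP. Slc38a2, another carrier of this family, was 0.72 higher on SP (limma adjusted p = 0.0296) and 0.63 higher on HP (adjusted p = 0.0971), with an interaction of -0.10 (-0.60 to 0.41). It stood at 13.2, 7.60, 9.69 and 11.9 scaled TPM with vehicle SP, 15.7, 16.1, 21.4 and 18.5 with G108 SP, 11.6, 11.4, 9.46 and 11.2 with vehicle HP and 14.6, 22.4, 18.8 and 14.5 with G108 HP. The groups did not overlap on either diet. Slc3a1, Slc1a4 and Slc1a2, which passed on SP alone, had interactions of -0.43, -0.29 and -0.25, none past an unadjusted p of 0.05.

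Other amino acid enzymes followed the pattern in part. Oat, which moves the ornithine nitrogen onward, rose by 1.28 on SP and was 0.62 higher on HP (interaction -0.66 ± 0.31), and Cbs, which commits homocysteine to cysteine, rose by 1.07 and was 0.45 higher (-0.62 ± 0.27). Neither interaction passed an unadjusted p of 0.05 without library 3 of G108 HP (-0.58 and -0.59) or without vehicle SP mouse 4 (-0.54 and -0.43). Hpd, the next enzyme after Tat, changed by 0.60 and 0.49. Branched-chain amino acid breakdown, a pathway with its first step mainly in muscle, had medians of 0.21 and -0.09 and no gene past an unadjusted p of 0.05. The amino acid sensing and mTORC1 list had a median interaction of 0.00 over 22 genes. At an unadjusted p under 0.05 it had 1 below and 2 above 0, against 3.46% and 3.75% of all genes. These counts were 0 and 0 without library 3 of G108 HP, and 0 and 1 without vehicle SP mouse 4.

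**Figure D4:**
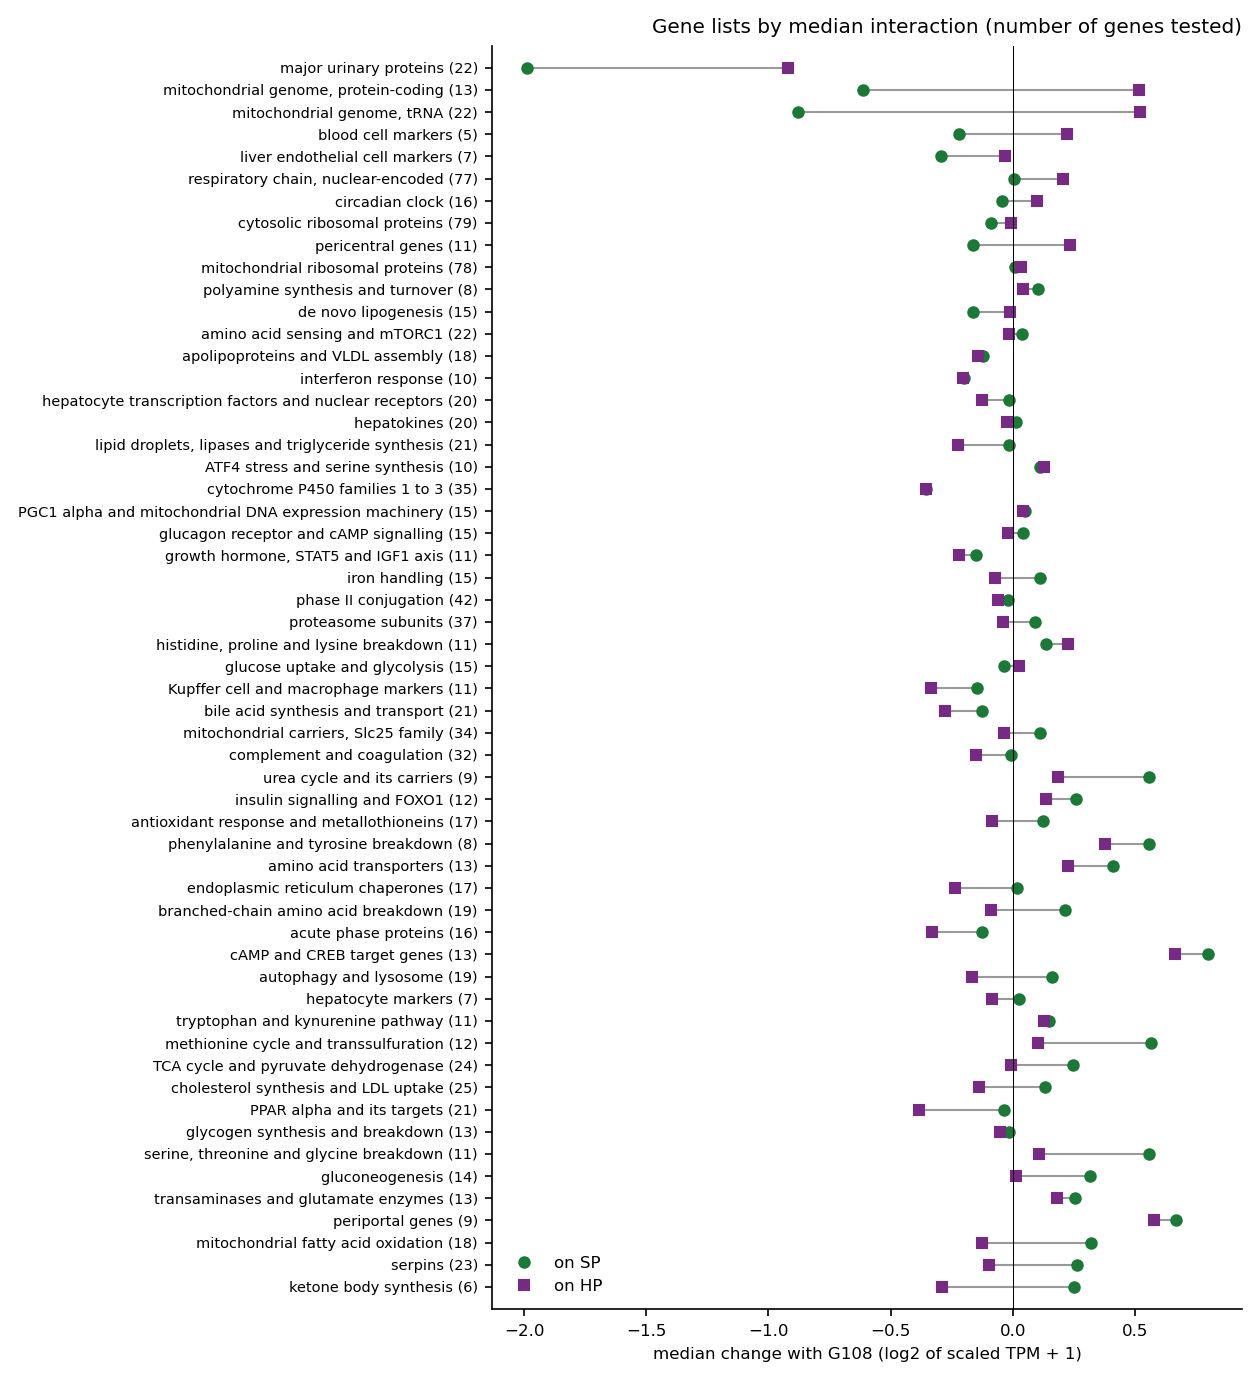
Median change with G108 on SP (green circles) and on HP (purple squares), log2 of scaled TPM + 1, for the 56 gene lists with at least 5 tested members, ordered by the median interaction; the number tested is in brackets. Mup genes and the mitochondrial genome lie at the top with the HP median to the right, and ketone body synthesis, serpins and fatty acid oxidation at the bottom with the HP median to the left.

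Mitochondrial fatty acid oxidation and ketone body synthesis lay above 0 with G108 on SP and below 0 on HP. Of 18 oxidation genes 17 had an interaction below 0, with medians of 0.32 on SP and -0.13 on HP and a median interaction of -0.42. Below 0, 1 of the 18 passed an unadjusted p of 0.05, against 3.46% of all genes. The 6 ketone body genes had medians of 0.25 and -0.29 and a median interaction of -0.62, with Bdh1, the last enzyme of ketone synthesis, at -0.65 ± 0.30. None of these genes passed the adjusted test of G108 on either diet, and the median interactions were -0.30 and -0.46 without library 3 of G108 HP and -0.21 and -0.34 without vehicle SP mouse 4. Bdh1 passed in neither case (-0.52 and -0.42).

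Cpt1a, which admits long fatty acids to mitochondria, was at 24.1, 26.1, 26.5 and 15.1 scaled TPM with vehicle SP, 28.5, 36.0, 36.2 and 40.5 with G108 SP, 23.9, 28.2, 30.5 and 31.0 with vehicle HP and 29.9, 21, 22.4 and 34.3 with G108 HP. On SP the treated mice lay above the vehicle mice, and on HP the groups overlapped. The interaction was -0.72 (-1.28 to -0.15, unadjusted p = 0.0166, limma), -0.64 without library 3 of G108 HP and -0.54 to -1.34 over the alternatives.

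Targets of PPAR alpha, the fatty acid receptor of the fasted liver, held 4 of 21 genes below 0 at an unadjusted p under 0.05 and none above, against 3.46% of all genes below 0, with 2 left (1.60% of all genes) without library 3 of G108 HP and 3 without vehicle SP mouse 4. Cyp4a14, a fatty acid omega-hydroxylase, was at 5.68, 36.1, 30.8 and 5.06 scaled TPM with vehicle SP, 33.6, 54.4, 79.2 and 41.1 with G108 SP, 27.2, 28.3, 67.6 and 23.3 with vehicle HP and 25.6, 29.9, 15.3 and 43.8 with G108 HP. The groups overlapped on both diets, and vehicle SP split into pairs of mice near 5 and above 30 scaled TPM. Its interaction of -2.07 (-3.77 to -0.37, unadjusted p = 0.0206) was the most negative in any list. Ehhadh, Cyp4a31 and Acot2 lay at -0.83 ± 0.36, -0.95 ± 0.38 and -0.65 ± 0.21, of which Ehhadh and Cyp4a31 did not pass without library 3 of G108 HP (-0.68 and -0.85) or vehicle SP mouse 4 (-0.57 and -0.83).

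A single gene of the lipogenesis list and a single gene of the lipid droplet list, Thrsp and Fitm1, fell with G108 on SP, and both had changes closer to 0 on HP that did not pass the adjusted test. Thrsp, a lipogenic gene of the insulin and thyroid hormone response, was at 192, 134, 217 and 236 scaled TPM with vehicle SP, 61.9, 66.0, 80.2 and 101 with G108 SP, 102, 166, 127 and 73.7 with vehicle HP and 86.2, 148, 87.1 and 137 with G108 HP. On SP the groups were apart and on HP they overlapped. The change was -1.32 on SP (limma adjusted p = 0.0141) and -0.01 on HP, and the interaction 1.30 (0.51 to 2.10, unadjusted p = 0.00337), with 0.66 (limma unadjusted p = 0.17) on TPM as deposited. The rest of de novo lipogenesis did not share this, since the 15 tested genes had a median interaction of 0.00 and Thrsp was the only one past an unadjusted p of 0.05.

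Tsku and Fitm1, a secreted hepatokine and a protein of lipid droplet formation, lay on the same side. Fitm1 was at 27.4, 38.0, 33.4 and 47.9 scaled TPM with vehicle SP, 14.5, 15.6, 12.9 and 12 with G108 SP, 33.4, 24.0, 40.9 and 29.3 with vehicle HP and 22.0, 21.9, 15.6 and 28.4 with G108 HP, and its interaction was 0.81 ± 0.28 (0.19 on TPM as deposited). Its groups were apart on SP and overlapped on HP. The lipid droplet list as a whole had medians of -0.02 on SP and -0.22 on HP and a median interaction of -0.06, and its member Plin3, a droplet coat protein, lay at -0.53 ± 0.21. Tsku was at 27.3, 29.7, 51.0 and 102 with vehicle SP, 17.2, 14.5, 19.4 and 32.8 with G108 SP, 25.8, 46.4, 26.3 and 12.4 with vehicle HP and 33.5, 37.0, 45.0 and 42.3 with G108 HP. The Tsku groups overlapped on both diets, so its interaction of 1.77 (0.55 to 2.99) rests on means of widely spread mice.

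The glycogen-targeting subunits of protein phosphatase 1 lay on opposite sides, Ppp1r3b at 0.98 ± 0.40 and Ppp1r3c at -0.63 ± 0.28, and without vehicle SP mouse 4 neither passed an unadjusted p of 0.05 (0.69 and -0.59). Igfbp1, a FOXO1 target that insulin represses, was at 8.04, 4.49, 4.88 and 2.90 scaled TPM with vehicle SP, 12.9, 9.42, 19.5 and 15.7 with G108 SP, 9.59, 6.8, 7.61 and 7.70 with vehicle HP and 11.2, 15.7, 12 and 12 with G108 HP. Treated mice exceeded vehicle mice on both diets. Its change was 1.36 on SP (limma adjusted p = 0.00506) and 0.62 on HP (adjusted p = 0.275), with an interaction of -0.74 (-1.44 to -0.04), and -0.72 without library 3 of G108 HP and -0.55 without vehicle SP mouse 4, neither past an unadjusted p of 0.05.

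Among hepatocyte regulators and secreted proteins, Nr1i3, which encodes the xenobiotic receptor CAR, fell by 1.18 on SP (limma adjusted p = 0.0187) and was at -0.30 on HP. It stood at 102, 98.5, 115 and 212 scaled TPM with vehicle SP, 93.8, 52.1, 42.1 and 42.6 with G108 SP, 90.2, 91.4, 87.0 and 87.2 with vehicle HP and 77.6, 70.6, 79.4 and 62.9 with G108 HP. G108 SP mouse 1 lay far above the rest of its group and vehicle SP mouse 4 far above the rest of its own. The interaction was 0.89 (0.13 to 1.65) and 0.25 on TPM as deposited.

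The bile acid receptor gene Nr1h4 lay at 0.65 ± 0.28 and at 0.01 on TPM as deposited, and did not pass without library 3 of G108 HP (0.52) or vehicle SP mouse 4 (0.45). Orm1, an acute phase protein, was at 530, 352, 425 and 438 scaled TPM with vehicle SP, 340, 222, 171 and 207 with G108 SP, 494, 405, 441 and 412 with vehicle HP and 405, 403, 350 and 288 with G108 HP. The groups did not overlap on SP, and on HP the highest treated mouse, at 405, came level with the lowest vehicle mouse. The interaction of Orm1 was 0.64 (0.06 to 1.21) and -0.01 on TPM as deposited, and the acute phase list as a whole had a median of -0.21, with Itih4 at -0.65 ± 0.26 (-0.54 without library 3 of G108 HP and -0.53 without vehicle SP mouse 4, neither past an unadjusted p of 0.05). Complement C3 lay at -0.98 ± 0.34, and serpins had 19 of 23 genes below 0 with a median of -0.43 (-0.27 and -0.16 without these libraries in the same order).

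The Mup genes, which encode the pheromone-binding proteins that male mouse liver secretes for the urine, had the largest shift of any list towards a smaller fall on HP. Of 22 genes 18 fell on SP and 8 on HP by the adjusted test, against 1.39% and 0.583% of all genes. The medians were -1.99 on SP and -0.92 on HP, and the median interaction was 1.15. At an unadjusted p under 0.05, 19 of the 22 had an interaction above 0, against 3.75% of all genes, and on TPM as deposited 11 did. The genes are near-identical copies, so their reads may be divided among them by the counting, and they are not independent of each other. Leaving out library 3 of G108 HP left 19.

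Mup15 was at 16070, 7290, 9410 and 11520 scaled TPM with vehicle SP, 1890, 1387, 950 and 1697 with G108 SP, 7664, 5540, 8148 and 10290 with vehicle HP and 4319, 3652, 2783 and 2398 with G108 HP. All G108 HP mice lay between the G108 SP mice below and the vehicle mice above. On SP it fell by 2.89 (limma adjusted p = 0.00013), on HP it fell by 1.27 (adjusted p = 0.0415), with an interaction of 1.62 (0.77 to 2.47, unadjusted p = 0.00107) and 0.97 on TPM as deposited. Over the alternatives the interaction of Mup15 stayed between 0.97 and 1.81.

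Promoters of 14 Mup genes were in the RefSeq table, and those of Mup15, with one of the larger interactions, and Mup21, with one of the smaller, are shown at chr4:61439705-61439954, minus strand, and chr4:62150842-62151091, minus strand (GRCm38.p6), with a TATATAA match in capitals.
Mup15: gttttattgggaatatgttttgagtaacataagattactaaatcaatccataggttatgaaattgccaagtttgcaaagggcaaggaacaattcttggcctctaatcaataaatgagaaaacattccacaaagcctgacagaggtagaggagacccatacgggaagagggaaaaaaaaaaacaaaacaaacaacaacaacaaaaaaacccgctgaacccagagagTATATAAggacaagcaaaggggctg
Mup21: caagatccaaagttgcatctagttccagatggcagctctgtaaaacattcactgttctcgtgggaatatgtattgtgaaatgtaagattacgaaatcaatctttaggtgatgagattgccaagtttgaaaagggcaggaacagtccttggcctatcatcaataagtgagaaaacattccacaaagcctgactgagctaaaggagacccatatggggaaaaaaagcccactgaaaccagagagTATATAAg
The letters TATATAA, searched on the gene's strand, occur in 2.05% of the 32851 windows. In the best local alignment with Mup15, over 123 to 247 bases, 9 genes had at least 95% identical bases, and their interactions lay between 0.94 and 1.58. The 4 less similar genes were Mup21 with 86.3% identity and an interaction of 0.73, Mup3 with 87.2% and 0.42, Mup4 with 90.9% and 2.98, and Mup6 with 92.7% and 0.96. The limit of 95% was chosen after the values were seen, the windows differ because the annotated starts do, and this is a description without a test.

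Mup20 and Mup4 stood apart from the rest of the family in their values. Mup6, at 0.96, did not pass either (unadjusted p = 0.367, limma), as Mup20 did not. Mup20, the major urinary protein known as darcin, was 0.28 higher with G108 on SP and 0.04 higher on HP, neither past the test, with 8590, 6266, 5437 and 3652 scaled TPM with vehicle SP, 5296, 8819, 7234 and 6923 with G108 SP, 4239, 4631, 3479 and 4043 with vehicle HP and 4267, 5320, 3693 and 3707 with G108 HP. All groups of each diet overlapped, and the interaction was -0.24 (-0.94 to 0.46). Mup4 was near the limit of detection in G108 SP, at 0 in 3 of the 4 mice, and stood at 10.3, 3.85, 67.1 and 3.63 scaled TPM with G108 HP. Its interaction of 2.98 (unadjusted p = 0.0178, limma) rests on these levels near 0 and in part on library 3 (2.13 without it). Mup3 lay at 0.42 ± 0.17 and at -0.23 on TPM as deposited.

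The mRNAs and tRNAs of the mitochondrial genome had medians below 0 with G108 on SP and above 0 on HP, and the 2 rRNAs did not, with medians of 0.46 and 0.53 and a median interaction of 0.08. None of the 13 mRNAs passed the adjusted test on either diet, and the medians were -0.61 and 0.51. All 13 had an interaction above 0 at an unadjusted p under 0.05, from 0.95 for mt-Co1 to 1.34 for mt-Nd3, and so did 12 of 22 tRNAs, with all 22 above 0. The share over all genes was 3.75%. The mRNAs are cut from a few long precursors, so they are close to a single measurement. Without library 3 of G108 HP 10 of the 13 passed, as without vehicle SP mouse 4, and on TPM as deposited 3 of 13 did, with a median of 0.49. Of the 22 tRNAs 8 passed without library 3 of G108 HP, 8 without vehicle SP mouse 4 and 4 on TPM as deposited.

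mt-Nd2, a subunit of respiratory complex I, was at 6784, 4534, 4335 and 8252 scaled TPM with vehicle SP, 3785, 4632, 3279 and 3497 with G108 SP, 5020, 3822, 4524 and 4331 with vehicle HP and 5445, 8436, 13280 and 4260 with G108 HP. The groups overlapped on both diets, and library 3 of G108 HP was the highest of all. Its interaction was 1.31 (0.41 to 2.21, unadjusted p = 0.00749, limma) and 1.01 without library 3 of G108 HP. The tRNA mt-Th had the largest value of the genome, 2.26 (0.68 to 3.84).

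As a share of TPM the mitochondrial genome took 17.5% ± 4.44 (SD, n = 4) in vehicle SP, 18.9% ± 2.39 in G108 SP, 17.7% ± 2.29 in vehicle HP and 26.7% ± 7.70 in G108 HP. G108 HP exceeded vehicle HP in an exact permutation test (two-sided p = 0.0286, the smallest that 4 against 4 allow), while G108 SP against vehicle SP had p = 0.571 and G108 HP against G108 SP had p = 0.0857 in the same exact test, with 4 such comparisons made of this share. On scaled TPM the summed mitochondrial level was 0.619 times that of vehicle with G108 on SP (exact permutation p = 0.143) and 1.42 times on HP (exact permutation p = 0.229), so the share and the level went opposite ways on SP. The Mup share fell by 25.1 percentage points on SP and by 15.5 on HP, each with an exact permutation p of 0.0286.

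**Figure D5:**
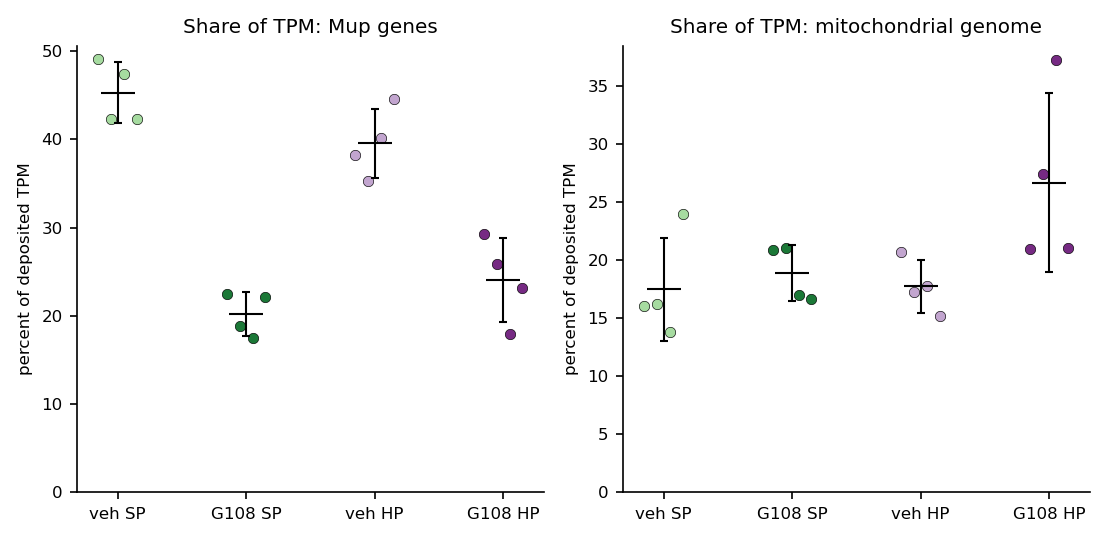
Percent of deposited TPM from 22 Mup genes (left) and from the 37 genes of the mitochondrial genome (right) in each mouse, with the group mean and SD (n = 4). The Mup share is lower with G108 on both diets, and library 3 of G108 HP has the highest mitochondrial share, 37.3%.

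The nuclear genes of the respiratory chain shifted in the same direction by a smaller amount. Of 77 genes 55 had an interaction above 0 and 7 passed an unadjusted p of 0.05 above 0, against 3.75% of all genes, with a median of 0.21. Ndufa8, Uqcrb, Ndufb3 and Cox7c, subunits of complexes I, III and IV, lay between 0.50 and 0.77. On TPM as deposited Ndufa8, Uqcrb and Ndufb3 had negative values. There 0 of the 77 passed above 0 and 30 below, against 0.304% and 47.7% of all genes. Without library 3 of G108 HP 1 of the 77 passed above 0 (1.3%, against 2.31% of all genes). Without vehicle SP mouse 4 it was 2 of the 77 (2.6%, against 3.06%). The list of PGC1 alpha and the proteins that copy and read the mitochondrial genome had a median of -0.08, and mitochondrial ribosomal proteins had a median of 0.01.

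Markers of other cells were read beside these results. The globin genes Hba-a1 and Hba-a2 both lay at 1.22 ± 0.52. Of the 5 blood cell markers tested, 2 passed an unadjusted p of 0.05 above 0, against 3.75% of all genes. None passed without library 3 of G108 HP or without vehicle SP mouse 4. The blood cell list summed to between 845 and 3100 scaled TPM in vehicle SP, 658 to 920 in G108 SP, 998 to 1310 in vehicle HP and 987 to 2390 in G108 HP. Its median interaction was 0.45, of the same sign as the mitochondrial mRNAs and Mup genes. That median was 0.23 without library 3 of G108 HP and -0.03 without vehicle SP mouse 4, so the shared sign depended on the latter mouse. The part of blood in those results was not tested. Liver endothelial markers lay above 0 in 7 of 7 genes with a median of 0.24, and Kupffer cell markers had a median of -0.15 (-0.39 without library 3 of G108 HP) and summed to 45.8 to 149 scaled TPM in G108 SP. Kupffer cell, endothelial, stellate cell and cholangiocyte markers had no gene past an unadjusted p of 0.05.

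Among the 12 genes with the largest interaction below 0 at an unadjusted p under 0.01, several lay outside these pathways. They included Slc39a4, a zinc importer, at -0.83 (-1.28 to -0.38), Nectin2, a cell adhesion protein, at -0.81 ± 0.19, Tspan9, a tetraspanin, at -0.74 ± 0.22, Adora1, an adenosine receptor that inhibits adenylate cyclase, at -0.71 ± 0.24, and the miRNA gene Mir2861 at -0.85 ± 0.17. Slc39a4 stood at 3.88, 3.62, 2.84 and 2.18 scaled TPM with vehicle SP, 5.95, 5.32, 6.72 and 6.21 with G108 SP, 4.15, 5.60, 5.34 and 5.98 with vehicle HP and 5.29, 3.82, 5.01 and 6.28 with G108 HP. On SP the groups were apart, on HP they overlapped, and the vehicle HP mice lay at the level of the treated mice. Above 0 the Mup pseudogenes Mup-ps3, Mup-ps15, Mup-ps12 and Mup-ps14 lay between 1.73 and 2.83.

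Genes that G108 changed most on HP were likewise chosen among those that passed there without overlap, and are given to describe their change on both diets. Cabyr, a calcium-binding protein, was 1.36 higher on SP and 2.14 higher on HP, Kiss1, the kisspeptin gene, was at 1.20 and 1.66, and Fads3, a fatty acid desaturase family member, at 1.66 and 1.60. Each of these passed the adjusted limma test on HP, and none had an interaction at an unadjusted p under 0.05. Cyp3a11, a drug-metabolising P450, fell by 2.31 on HP and was at -1.19 on SP, with an interaction of -1.12 ± 0.60 (unadjusted p = 0.080). Slc16a5, a monocarboxylate carrier, rose on both diets, by 1.69 and 1.14.

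Stress lists had median interactions below that of all genes. Autophagy and lysosome genes had medians of 0.16 on SP and -0.17 on HP, with 17 of 19 below 0, endoplasmic reticulum chaperones a median interaction of -0.20 with 15 of 17 below 0, and antioxidant genes -0.17 with 13 of 17. Per2, a clock repressor, and Bcl6, a repressor in the growth hormone axis, lay at 1.16 ± 0.50 and 1.16 ± 0.53, with unadjusted p (limma) of 0.073 and 0.0696 without library 3 of G108 HP. The clock list had a median of 0.15 over 16 genes. Above 0, 1 of them passed an unadjusted p of 0.05, against 3.75% of all genes. Cytosolic ribosomal proteins had a median of 0.09 over 79 genes. Below 0, 1 of the 79 passed an unadjusted p of 0.05, against 3.46% of all genes. This was Rpl3 at -0.54 ± 0.24, and at -0.45 without library 3 of G108 HP and -0.34 without vehicle SP mouse 4, neither past it. Cytochrome P450 families 1 to 3 had medians of -0.36 on both SP and HP. Cholesterol synthesis had a median interaction of -0.25 with none of 25 genes past an unadjusted p of 0.05, and of -0.08 without library 3 of G108 HP.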

How the data were processed

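Liver RNA of 16 mice, 1 library each, was sequenced. Per the labels and the study's methods the authors aligned reads to GRCm38 with HISAT2 2.0.5 after FastQC 0.11.8, counted them per gene with featureCounts and tested counts with DESeq2 1.36.0, versions as in the submitters' processing notes. Whether counting used strand is not given in the sources used here. The deposited values are TPM for 55487 genes, in 16 columns that were all used (0 columns were not used). TPM is length-scaled and sums to a fixed total, so it is not a count. Multiples of what 1 read is worth gave back whole reads, within 0.02, for 98.9% of 113078 values of at most 10 reads, from which depth was read. 55141 identifiers had a symbol.

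The filter kept the 11839 genes averaging 1 TPM or more. TPM was divided by median-of-ratios factors from 11591 genes, and log2(value + 1) was fitted with limma 3.58.1 (R 4.3.3) with an intensity trend over all 4 groups (12 residual degrees of freedom). A fold change on this scale understates the change of low genes. P-values were adjusted by Benjamini-Hochberg over all 11839 genes, and tests are two-sided. Replicates are separate mice. Within groups, correlations of log2 values were between 0.929 and 0.989, and no pair of libraries shared more than 0.11% identical values, so none was counted as a duplicate. Shares of TPM were compared by exact permutation (scipy 1.17.1, Python 3.11.15). Promoters were aligned with Biopython 1.88 and figures drawn with matplotlib 3.10.9. The script for the fit was tested on simulated data. Groups came from the sample records.

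Genes were named by a rule: the 12 largest interactions in each direction at an unadjusted p under 0.01 with the same sign on TPM as deposited; up to 4 members of each list at an unadjusted p under 0.05, or its most abundant member; up to 8 genes per diet and direction with the largest adjusted change and no overlap; and Gcgr, the Mup genes, the mitochondrial mRNAs, and the urea cycle, cAMP target and transporter lists. The members and gene lists were chosen with earlier results of these data known, so no list is independent evidence. Some genes that the rule names are not reported here. Alternatives were other scalings, filters, pseudocounts, weights and tests, a replicate block, and each library left out in turn.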

Additional observations from a re-analysis of the deposited data

Results flagged for a closer look

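In 36 measures (32 genes, given in scaled TPM, and 4 library measures) each group of 4 mice was searched for a mouse far from the rest. In 16 of 144 groups (11.1%) the highest or lowest mouse lay apart by more than Dixon's 95% limit, where chance gives about 1 group in 20, and the measures are not independent. Vehicle SP mouse 1 had Tat at 499 and Slc7a2 at 74.0, and vehicle SP mouse 4 had Nr1i3 at 212, each above the rest of the group. G108 SP mouse 1 had Arrdc3 at 11.3, Rgs16 at 5.98 and Mup4 at 0.0426, above the rest, and Got1 at 137 and Gnmt at 1200, below the rest. In vehicle HP, mouse 4 had Rgs16 at 35.8, above the rest, and Slc7a2 at 43.1, below it, while mouse 3 had Cyp4a14 at 67.6 and mouse 1 had mt-Th at 1440, both above the rest. In G108 HP, mouse 2 had Pck1 at 1060, mouse 3 had Mup4 at 67.1, mouse 4 had Got1 at 229 and mouse 1 had 36.5 M reads, all above the rest.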

How the results depend on the processing

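No interaction passed an adjusted p of 0.05 under the alternatives, except that without a filter 1 gene did (Snord15a, -0.32, adjusted p = 0.000295, limma). Interactions below 0 at an unadjusted p under 0.05 numbered 410, and 5649 on TPM as deposited, 1052 with the GC slope as a covariate, 777 without a filter, 190 at a mean TPM of at least 5 and 1224 with array weights. Those above 0 numbered 444, and in the same order 36, 921, 824, 240 and 1228. On TPM rescaled without Mup and mitochondrial genes 559 lay below 0 and 223 above 0. Genes called on SP numbered 322, and 9185 on TPM as deposited, 1730 with GC and 1821 with weights. Genes called on HP numbered 145, and 43 without a filter, 77 at the higher filter and 795 with weights. Leaving out each library gave 189 to 886 below 0, 272 to 784 above 0, 158 to 471 called on SP and 17 to 216 on HP. The lowest counts came without library 3 of G108 HP (189 below 0 and 17 on HP), vehicle HP mouse 4 (272 above 0) and G108 SP mouse 3 or 4 (158 on SP). The cause of these changes was not tested.

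On TPM as deposited the interaction changed sign for genes that included Gnas (-0.25), Rps6kb1 (-0.21), Lamtor4 (-0.14), Prox1 (-0.04), Slirp (-0.18), Orm1 (-0.01), Ndufa8 (-0.15), Ndufb3 (-0.02), Uqcrb (-0.07), Mrpl4 (-0.26), Slc25a45 (-0.04), Slc25a17 (-0.33), Cyp2d40 (-0.02), Sult1d1 (-0.24), Creb3l3 (-0.59), Slc6a12 (-0.61) and Mup3 (-0.23). Of 129 named genes past an unadjusted p of 0.05, 80 were still past it there.

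With the mouse number as a replicate block, 213 genes were called on SP, 35 on HP and 0 for the interaction (302 below and 366 above 0 at an unadjusted p under 0.05). Same-numbered mice did not deviate together, with correlations from -0.567 to 0.529 and 8 of 24 pairs over 0.1, and 4 of 16 libraries were closest to their own number. Depth, from 27.8 to 45.0 M reads, and 4 mice a group limit an interaction to a median standard error of 0.20.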
